A study of Mus musculus with 12 samples.

Results

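Small leucine-rich proteoglycans (SLRPs) are secreted matrix proteins built around a run of leucine-rich repeats, and most members carry chondroitin, dermatan or keratan sulfate chains. They bind collagen fibrils and control their diameter and spacing, and several also bind growth factors of the TGF-beta and BMP families. The 10 SLRP genes described here are Ogn, Dcn, Lum, Bgn, Fmod, Omd, Prelp, Aspn, Podn and Kera, of 18193 genes measured. They were taken with all 21 probe sets annotated to one of them alone. Ogn was chosen by its large age change in XY cells on these arrays, so its male values are given as a description with no test. The other 9 genes were listed because they belong to the same family, at a time when earlier results of these data were known.

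The cells were sorted from gonads of mouse embryos that carried a green fluorescent protein reporter, pSF1-eGFP, driven by the promoter of Sf1 (Nr5a1), which is active in somatic cells of the early gonad and in the adrenal. The 4 groups were green cells of females at 10.5 days post coitum (dpc), males at 10.5 dpc, females at 11.5 dpc and males at 11.5 dpc, with 3 arrays each. All groups carried the reporter, and the RNA of all groups was amplified through repeated rounds before hybridisation to an Affymetrix mouse array. The labels do not say whether replicates came from separate litters or pools of embryos, so each p-value rests on the spread among arrays alone, which may be technical.

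Nr5a1 itself was clearly measured in every group, with means of 378 (females) and 625 (males) at the earlier age and 549 (females) and 748 (males) at the later one. Xist averaged 5971 and 12231 in the female groups and 9.26 and 8.01 in the male groups, in order of age. The Y-linked Eif2s3y was at 9.80 in females at 10.5 dpc and at 64.7 in females at 11.5 dpc, 4.03% of its male level. Kdm5d, also Y-linked, was at 6.38 and 7.07 in the same female groups. Both 10.5 dpc groups stood apart in markers of other cells: the summed intensity of 8 neural markers was 9400 to 9940 in females at 10.5 dpc, 2220 to 2340 in males at 10.5 dpc, 468 to 508 in females at 11.5 dpc and 476 to 494 in males at 11.5 dpc. The sum over 8 germ cell markers was 3030 to 3250 in females at 10.5 dpc and 800 to 1370 in the other groups. Males at 10.5 dpc were lower than the other groups in the sum over 12 endothelial markers, 708 to 837 against 1580 to 1900, and over 7 erythroid markers, 1210 to 1330 against 6260 to 15600. The sum over 13 markers of Sertoli cells and the testis pathway was 3410 to 3930 at 10.5 dpc, 4740 to 4930 in females and 21600 to 23400 in males at 11.5 dpc. For the actin control probe sets the 3′ over 5′ ratio, a sign of RNA integrity and amplification, averaged 5.32 in the female and 9.90 in the male 10.5 dpc arrays, and 9.97 and 7.59 a day later. For the Gapdh control probe sets it averaged 2.70 and 4.65 at 10.5 dpc, and 3.88 and 4.19 a day later. At 11.5 dpc the actin ratio was thus higher in females and the Gapdh ratio higher in males. Array medians lay between 41.06 and 43.74 and lower quartiles between 8.228 and 8.948, and these give a scale for the intensities below.

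The 250 bases before the annotated start are shown for Ogn, for its direct neighbour Omd, and for Bgn and Fmod, the other genes whose age changes the results turn on. The sequences are those of RefSeq on mouse build GRCm38.p6, all on the plus strand: chr13:49607765-49608014 for Ogn, chr13:49582212-49582461 for Omd, chrX:73483351-73483600 for Bgn and chr1:134037004-134037253 for Fmod. Capitals mark matches, searched on both strands, to one of 6 short motifs. These were the TATA box with the letters TATAAA, the motif of Nr5a1 itself with AAGGTCA, that of SOX factors with AACAAT, that of GATA factors with AGATAA, that of AP-1 factors with TGANTCA, and that of TEAD factors with GGAATG.
Ogn: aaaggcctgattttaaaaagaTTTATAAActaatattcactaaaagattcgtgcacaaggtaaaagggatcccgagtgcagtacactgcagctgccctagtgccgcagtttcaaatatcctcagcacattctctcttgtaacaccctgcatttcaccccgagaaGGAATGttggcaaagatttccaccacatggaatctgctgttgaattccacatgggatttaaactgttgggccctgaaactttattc
Omd: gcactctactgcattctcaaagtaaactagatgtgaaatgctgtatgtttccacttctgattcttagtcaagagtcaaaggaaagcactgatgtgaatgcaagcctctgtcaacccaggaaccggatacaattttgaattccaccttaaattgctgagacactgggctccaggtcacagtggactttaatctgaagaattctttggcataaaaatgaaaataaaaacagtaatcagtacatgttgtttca
Bgn: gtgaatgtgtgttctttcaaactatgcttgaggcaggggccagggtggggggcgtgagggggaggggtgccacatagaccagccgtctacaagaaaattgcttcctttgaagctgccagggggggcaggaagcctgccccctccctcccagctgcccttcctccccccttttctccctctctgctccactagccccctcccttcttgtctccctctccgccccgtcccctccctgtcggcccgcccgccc
Fmod: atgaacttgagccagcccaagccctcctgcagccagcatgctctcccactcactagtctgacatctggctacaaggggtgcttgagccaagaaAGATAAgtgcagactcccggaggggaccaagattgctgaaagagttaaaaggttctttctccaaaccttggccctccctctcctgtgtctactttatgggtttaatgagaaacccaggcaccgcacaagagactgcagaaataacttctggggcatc
The Ogn window held TATAAA on both strands in overlapping matches, whose first bases lay 227 and 229 bases before the start, and GGAATG at 86 bases before it. TATAAA was found in 12.4% and GGAATG in 12.6% of all 32851 promoter windows of the same length. The Fmod window held AGATAA, a match found in 9.99% of windows, and the Omd and Bgn windows held none of the 6 motifs. The Nr5a1 motif, present in 4.08% of all windows, was found in 0 of the 8 members with a promoter entry. The GC content was 42% for Ogn, 38.4% for Omd, 51.2% for Fmod and 64.4% for Bgn, against a median of 52.4% over all windows.

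Ogn went from near the lowest intensities of the arrays to a clear signal within 1 day of development in both sexes. Ogn encodes osteoglycin (mimecan), a class III SLRP that affects the thickness of collagen fibrils. The better of its probe sets, 1419663_at, read 5.54, 6.52 and 6.48 on the female 10.5 dpc arrays and 6.21, 5.94 and 6.73 on the male ones. At 11.5 dpc it read 175, 226 and 197 in females and 555, 463 and 532 in males. All 6 arrays at 10.5 dpc lay below the arrays' lower quartile, all 6 at 11.5 dpc lay above their median, and the female and male arrays did not overlap at 11.5 dpc. The mean rose from 6.18 ± 0.55 (SD, n = 3) to 199.5 ± 25.7 in females, a ratio of 32.3, and the male mean went from 6.30 ± 0.40 to 516 ± 47.8, a ratio of 82.0.

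In females, whose arrays did not enter the choice of Ogn as a gene, the rise was 4.80 ± 0.10 (SE) on the log2(intensity + 1) scale. Its limma adjusted p was 2.5e-10. The probe set, however, was taken for its highest mean over all 12 arrays, and the SE uses the spread in all 4 groups. This p is therefore not wholly free of the selection. The corresponding male change was 6.15 ± 0.10, and the male level at 11.5 dpc was 1.37 ± 0.10 above the female level; both are given with no test. Females at 11.5 dpc had 38.6% of the male Ogn level, and the sum of Sertoli and testis markers was also higher in males than in females at that age. Of those 13 markers, 8 were higher and 2 (Nr0b1 and Wt1) lower in males by limma, against 19% and 20.9% of all genes. The brightest in males was Col9a3, with means of 539 in females and 8188 in males. Amh, also on the list, had group means of 3.18 to 3.24. The sums of some other lists were higher in females at 11.5 dpc. Over 10 markers of pregranulosa cells the sum was 17000 to 17900 in females and 7060 to 7460 in males. Over 7 fetal Leydig and adrenal markers it was 9660 to 10000 in females and 5540 to 5900 in males. The part of any of these sums in the Ogn values was not tested. At 10.5 dpc the sexes differed by 0.02 ± 0.10. In a bulk sample, more cells that express a gene and more RNA per cell cannot be told apart.

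At the 10.5 dpc intensities of Ogn a low level cannot be told from none, so these ratios and log2 changes have no fixed size: with a pseudocount of 16 the change was 3.27 in females and 4.57 in males. Among 18193 genes the female rise ranked 6 with a pseudocount of 1 and 24 with 16, and the male change 5 and 10. A high male rank follows from the choice of Ogn by that change and is no separate result. The other Ogn probe set, 1419662_at, stayed dim. It read 3.68, 3.96 and 4.03 in females and 4.02, 3.76 and 3.79 in males at 10.5 dpc, and 4.09, 3.95 and 7.09 in females and 8.61, 10.6 and 8.32 in males at 11.5 dpc. Its female change of 0.27 ± 0.16 did not pass the test (limma adjusted p = 0.25), and its male change was 1.06 ± 0.16. Only the male 11.5 dpc arrays stood clear of the rest at this probe set. Averaged over both probe sets, the Ogn change was 2.53 in females and 3.60 in males.

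**Figure D1:**
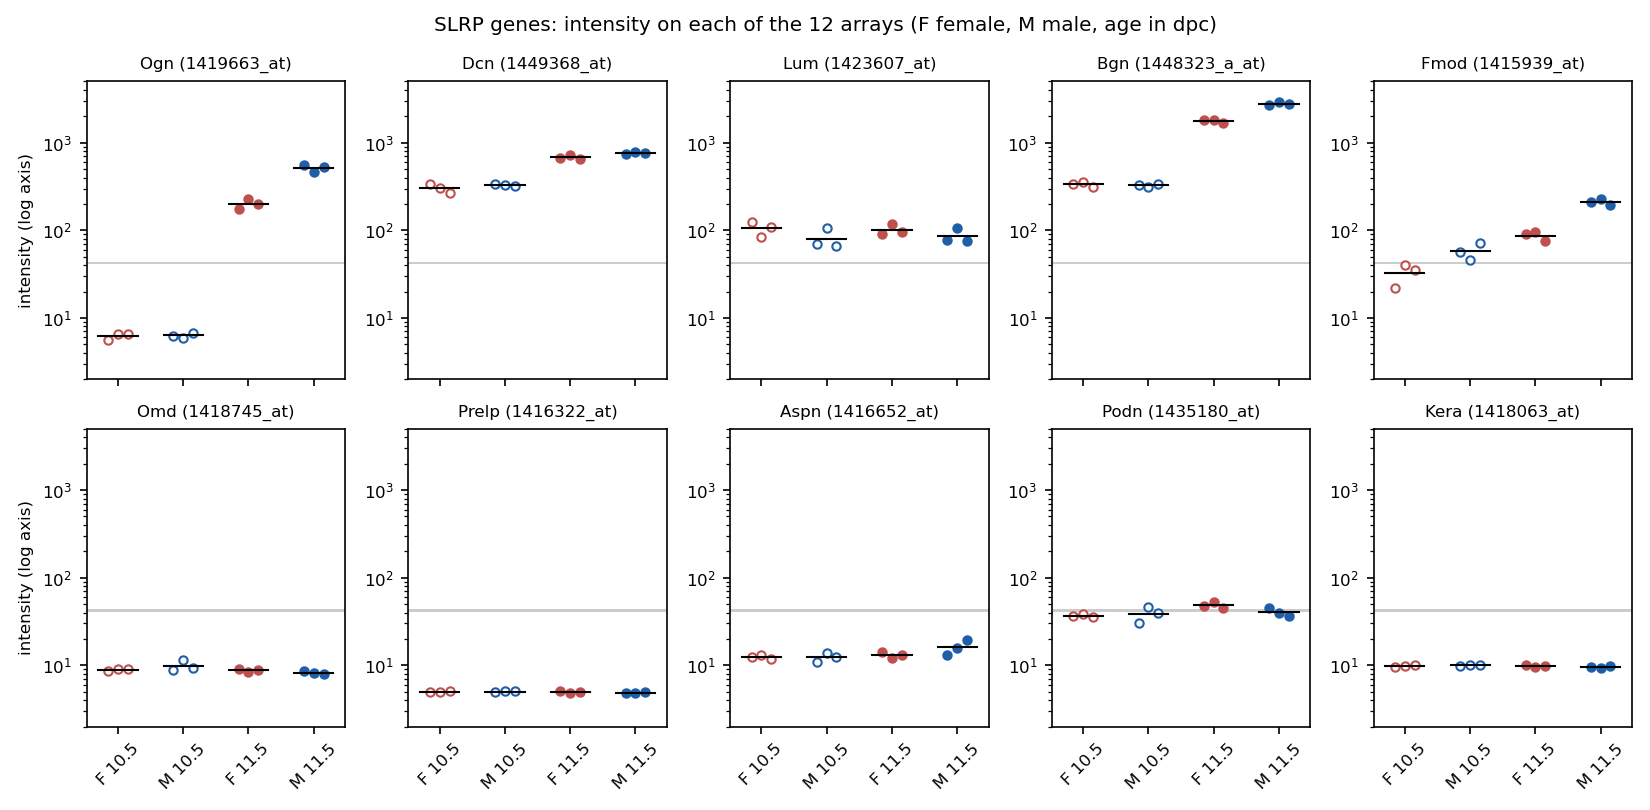
Intensity (log axis) of the brightest specific probe set of each of the 10 genes on every array, for females (F) and males (M) at 10.5 and 11.5 dpc; open circles are 10.5 dpc, filled circles 11.5 dpc, black lines group means, and the grey band spans the array medians. Ogn, Bgn, Dcn and Fmod were higher at 11.5 dpc in both sexes, whereas Omd, Prelp, Aspn and Kera stayed below the band on all 12 arrays.

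In females, 5 of the 10 genes rose from 10.5 to 11.5 dpc (Ogn, Bgn, Fmod, Dcn and Podn) and 0 fell, at a limma adjusted p of at most 0.05; 22.3% of all 18193 genes rose and 27% fell by the same rule. Of the members, 4 were at least 2-fold higher (Ogn, Bgn, Fmod and Dcn), against 5.75% of all genes. Of 6 other SLRP genes measured, 0 were at least 2-fold higher at 11.5 dpc in females and 1 (Epyc) in males, with no test. The median change over the 10 genes was 0.23 (log2), or 0.07 without Ogn, and -0.01 over all genes, so the large changes lay in 4 genes and not in the family as a whole. By probe set, 12 of 21 rose, against 21% of all probe sets, but these included all 6 of Fmod and all 3 of Bgn. Probe sets of the same gene are not independent members, so this share does not add to the count by gene. Of all probe sets called, 50.3% were higher; centring each array on its median, which shifts this contrast by 0.0708, made 31.9% of the calls higher. In males the same 4 genes were at least 2-fold higher, with no test; Ogn was chosen by that change, and without it 3 of 9 members were, where 5.79% of all genes were. The neural marker sum was lower and the actin ratio higher at 11.5 dpc in females, and the endothelial and erythroid sums were higher at 11.5 dpc in males, as given above; their part in these changes was not tested.

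Class I SLRPs carry chondroitin or dermatan sulfate chains. Bgn (biglycan), which binds collagen, TGF-beta and BMPs and lies on the X chromosome, was measured by 3 probe sets. Probe set 1448323_a_at read 338, 357 and 309 in females and 331, 314 and 342 in males at 10.5 dpc, then 1823, 1809.6 and 1687 in females and 2718, 2880.1 and 2745 in males at 11.5 dpc. The sexes overlapped at 10.5 dpc, and at 11.5 dpc every male array was above every female array. The female rise was 2.40 ± 0.06 (limma adjusted p = 4.65e-10) and the male change 3.08 ± 0.06, ratios of means of 5.30 and 8.45.

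At 11.5 dpc Bgn was 0.65 ± 0.06 higher in males than in females (limma adjusted p = 8.73e-06), a ratio of means of 1.57, while at 10.5 dpc the difference was -0.02 ± 0.06 (adjusted p = 0.825). The male age change exceeded the female one by 0.67 ± 0.08 (adjusted p = 0.000134). Probe set 1416405_at gave the same picture, with means of 130.2, 141, 739 and 1313 in females and males at 10.5 dpc and females and males at 11.5 dpc, and a difference of age changes of 0.72 ± 0.08 (adjusted p = 7.59e-05). Probe set 1437889_x_at, of a kind whose probes can also match other transcripts, had means of 194, 208, 875 and 1248. Its female rise of 2.16 ± 0.15 and its male excess at 11.5 dpc of 0.52 ± 0.15 passed the test (adjusted p = 5.42e-07 and 0.0192), and its difference of age changes of 0.42 ± 0.21 did not (adjusted p = 0.177).

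Dcn encodes decorin, which decorates collagen I fibrils and binds TGF-beta. It read 340.5, 305 and 267 in females and 334, 332 and 324 in males at 10.5 dpc, and 666, 720.3 and 660.1 in females and 744, 788 and 771 in males at 11.5 dpc. In both sexes every 11.5 dpc array was above every 10.5 dpc array. The female rise was 1.17 ± 0.07 (limma adjusted p = 3.1e-07), the male change was 1.22 ± 0.07, and the difference between them was 0.05 ± 0.10 (adjusted p = 0.742). At 11.5 dpc all male arrays were above all female arrays, but the difference of 0.17 ± 0.07 did not pass the test (adjusted p = 0.109); it did when only those groups were fitted (adjusted p = 0.0358). At 10.5 dpc the male excess of 0.12 ± 0.07 did not pass (adjusted p = 0.278), and without female replicate 1 it was 0.21 (adjusted p = 0.0279). A dim probe set annotated to Dcn, 1441506_at, stayed between 7.08 and 8.0 on all 12 arrays and did not pass the test in any of the 4 tested comparisons.

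Aspn encodes asporin, a class I member without glycosaminoglycan chains that binds TGF-beta and collagen, and its calls differed between its probe sets. Probe set 1416652_at read 12.5, 13.1 and 11.7 in females and 11, 13.7 and 12.4 in males at 10.5 dpc, and 14.1, 12 and 13.2 in females and 13.2, 15.8 and 19.3 in males at 11.5 dpc. These groups overlapped, and the male excess at 11.5 dpc was 0.27 ± 0.12 (limma adjusted p = 0.12). Probe set 1448421_s_at, which can match more than one transcript, read 22.5, 17.9 and 21.4 in females and 43.7, 36.4 and 24.1 in males at 11.5 dpc, with 19.8 to 23.2 on the 10.5 dpc arrays. All 3 male arrays at 11.5 dpc were above all other arrays there, and the male excess of 0.69 ± 0.18 passed the test (adjusted p = 0.0113). The mean of both probe sets gave a male excess of 0.48 (adjusted p = 0.000635). Over the 3 male arrays at 11.5 dpc, however, the probe sets ran in opposite order, so their mean varied less than either. The smaller p is thus no sign that the probe sets agree.

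Class II SLRPs often carry keratan sulfate. Fmod encodes fibromodulin, which binds fibrillar collagen, and was the only one of the 9 tested members called higher in males already at 10.5 dpc. Its specific probe set, 1415939_at, read 22.1, 40.0 and 35.6 in females and 57.1, 46.1 and 71.2 in males at 10.5 dpc, and 90.2, 94.5 and 75.9 in females and 212, 229.8 and 196 in males at 11.5 dpc. No pair of groups compared overlapped. The female rise was 1.42 ± 0.21 (limma adjusted p = 0.000227) and the male change 1.87 ± 0.21; the male excess was 0.84 ± 0.21 at 10.5 dpc (adjusted p = 0.0102) and 1.29 ± 0.21 at 11.5 dpc (adjusted p = 0.000729). The 10.5 dpc call was lost when only the groups compared were fitted (adjusted p = 0.0598). The summed neural markers were higher in females than in males at that age, as given above, and their part in the difference was not tested.

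The other 5 Fmod probe sets, all of the kind that can match other transcripts, also gave a female rise, of 1.70 to 2.97, and a male excess at both ages, of 0.93 to 1.62 at 10.5 dpc and 0.44 to 0.83 at 11.5 dpc. They differed from the specific probe set in whether the age change was larger in males or in females. At the specific probe set the male age change exceeded the female one by 0.45 ± 0.30, which did not pass the test (limma adjusted p = 0.301). At the other 5 it was smaller than the female one, by -0.42 ± 0.14 at 1437324_x_at (adjusted p = 0.0467) to -1.12 ± 0.10 at 1456084_x_at (adjusted p = 1.72e-05). The last of these read 146, 125 and 118 in females and 418, 389 and 389 in males at 10.5 dpc, and 988, 1038 and 1030.1 in females and 1406, 1409 and 1493 in males at 11.5 dpc. The sign of the sex difference in the Fmod age change is therefore not settled by these probe sets, while the rise and the male excess were called by all 6.

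**Figure D2:**
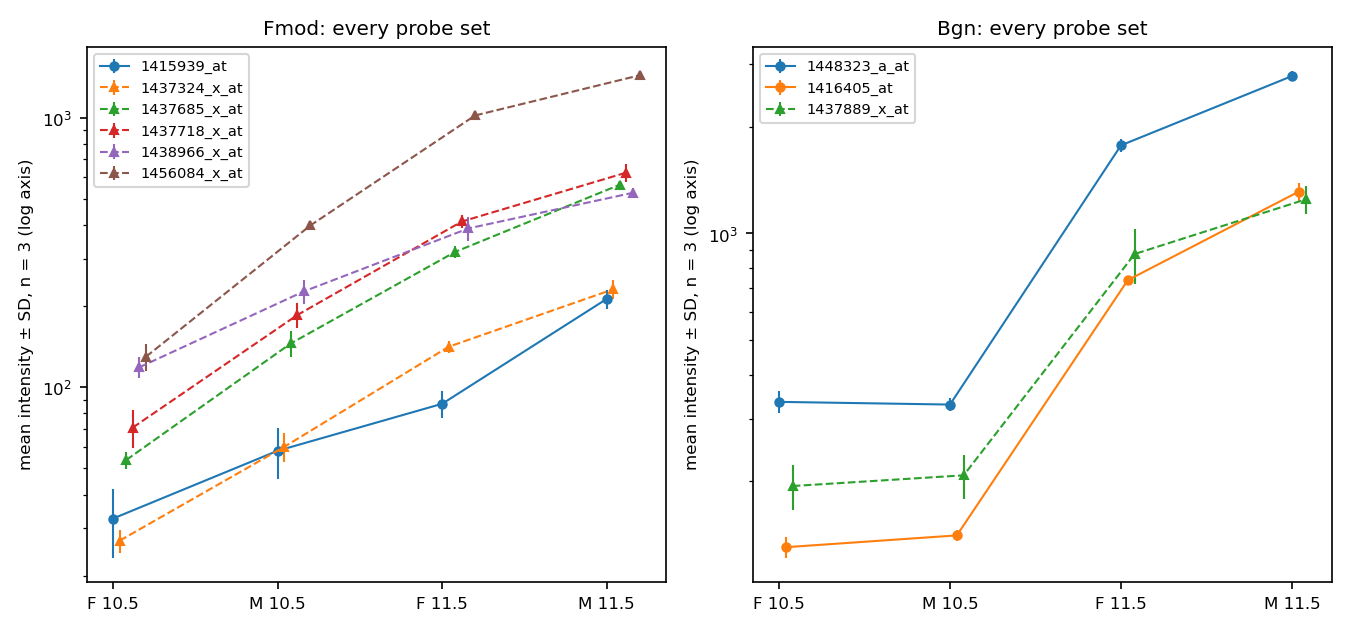
Mean intensity ± SD (n = 3, log axis) of every Fmod and Bgn probe set in females (F) and males (M) at 10.5 and 11.5 dpc; triangles and dashed lines mark probe sets whose probes can match other transcripts, and lines join the groups of one probe set. All 6 Fmod probe sets were higher in males than in females at both ages, and all 3 Bgn probe sets separated the sexes only at 11.5 dpc.

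Lum encodes lumican, known for collagen spacing in the cornea, and was measured above the array median on all 12 arrays. It read 125, 84.0 and 109 in females and 70.3, 105 and 66.1 in males at 10.5 dpc, and 91.2, 117 and 95.4 in females and 77.9, 106 and 75.8 in males at 11.5 dpc. All 4 groups overlapped, with a female age change of -0.06 ± 0.21 (limma adjusted p = 0.926). The male minus female difference at 10.5 dpc was -0.41 ± 0.21 (adjusted p = 0.188), and without male replicate 2 it was -0.61 (adjusted p = 0.0361). Omd (osteomodulin, made by bone-forming cells) stayed between 8.03 and 11.6, and Kera (keratocan, a corneal proteoglycan) between 9.20 and 10.1. Prelp, which links basement membranes to connective tissue, stayed between 4.85 and 5.05 at 1416322_at and between 7.87 and 10.7 at 1416321_s_at. Omd, Kera and Prelp were below the array median on all 12 arrays and passed the test in 0 of the 4 tested comparisons; at such intensities a low level cannot be told from none. With each array centred on its median, the small female decreases of Kera and Prelp, -0.07 and -0.08, passed the test (adjusted p = 0.047 and 0.0123).

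Podn encodes podocan, a class V member. It read 36.3, 38.6 and 35.3 in females and 30.5, 46.2 and 39.9 in males at 10.5 dpc, and 47.7, 52.5 and 45.3 in females and 44.9, 39.3 and 36.4 in males at 11.5 dpc. The female arrays of the 2 ages did not overlap, while the male arrays did. The female rise of 0.39 ± 0.13 passed the test narrowly (limma adjusted p = 0.036), but it was lost when any of 5 of the 6 female arrays was left out, with adjusted p up to 0.123, and with each array centred on its median (0.32, adjusted p = 0.0603).

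Between the sexes, 1 of the 9 members other than Ogn was higher in males at 10.5 dpc (Fmod), against 17.5% of all genes higher and 22.8% lower, and 2 of 9 were higher at 11.5 dpc (Bgn and Fmod), against 19% higher and 20.9% lower; 0 were lower by limma at either age. These shares are near the background, so the count over the members is no result about the family. The age change differed between the sexes for 1 of 9 members (Bgn, larger in males), against 18.9% of all genes with a larger and 14.3% with a smaller male change. By probe set, 6 of 19 were higher in males at 10.5 dpc and 10 of 19 at 11.5 dpc, against 17.9% and 17.7% of all probe sets; all 6 Fmod probe sets were among them at both ages. For the difference of age changes, 2 of 19 probe sets were larger in males, both of Bgn, and 5 were smaller, all of Fmod, against 14.6% and 13.4% of all probe sets.

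**Figure D3:**
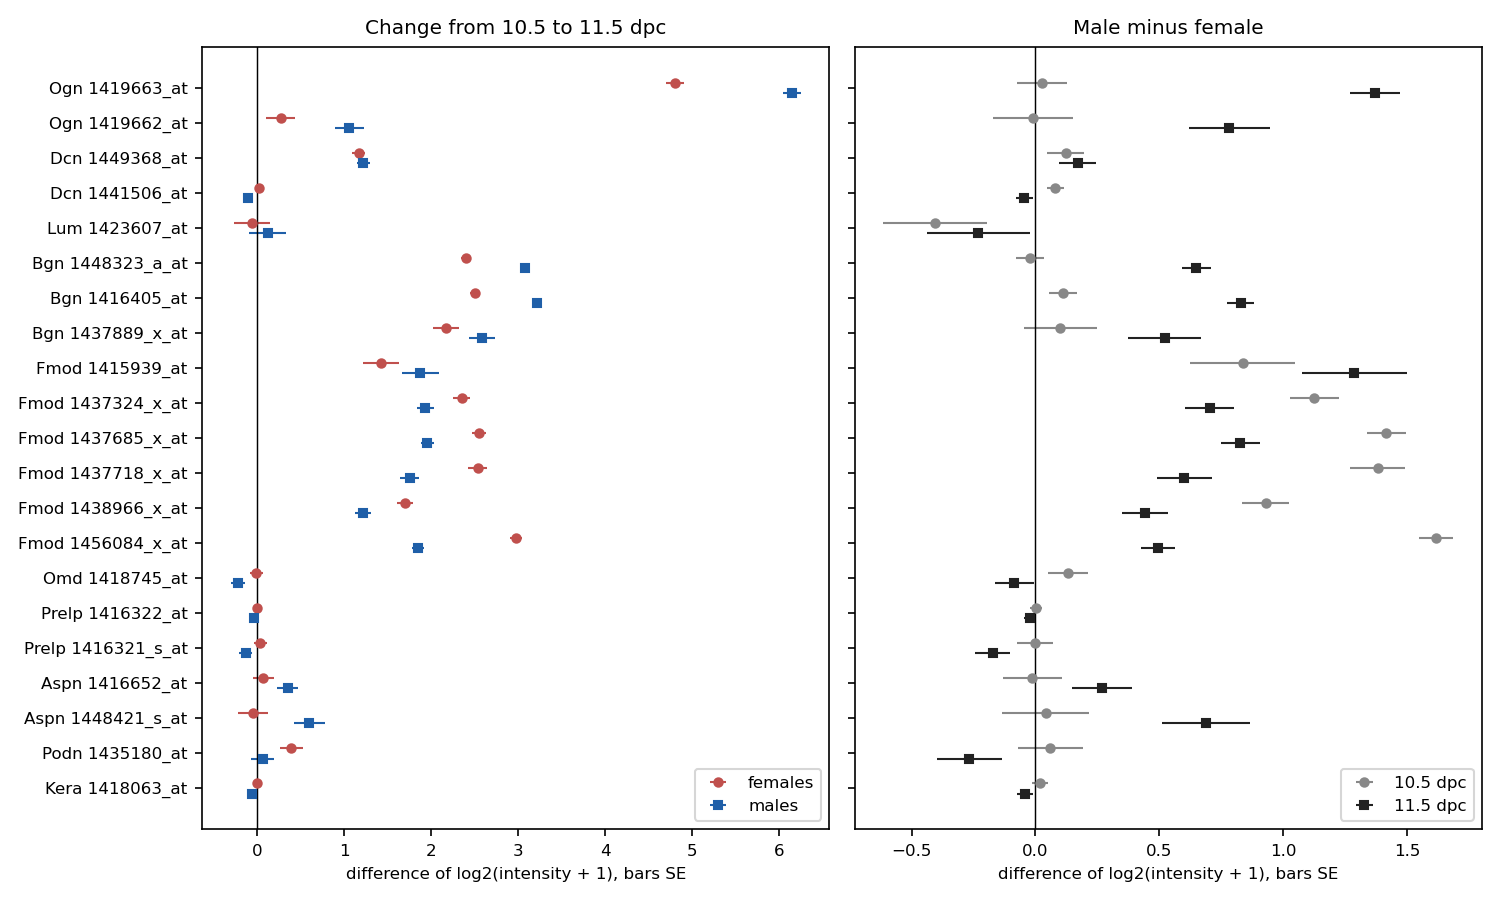
Difference of log2(intensity + 1) with its SE for all 21 probe sets, on the left from 10.5 to 11.5 dpc in females (circles) and males (squares), on the right male minus female at 10.5 dpc (grey) and 11.5 dpc (black). Ogn 1419663_at changed most, by 4.80 in females and by 6.15 in males, the change that chose Ogn. The Bgn and Fmod probe sets lay right of 0 in both age changes.

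Several members are neighbours in the genome, and Ogn, Dcn and Fmod rose in females while the members beside them did not pass the test. On chromosome 13 the RefSeq order is Cenpp, Ecm2, Aspn, Omd, Ogn, Nol8 and Iars, and the Cenpp gene model spans Ecm2, Aspn, Omd and Ogn. Against the Ogn rise of 4.80 in females, Omd changed by -0.01 ± 0.08 and Aspn by 0.07 ± 0.12, and Ecm2, another leucine-rich matrix gene, by 0.00 ± 0.03, with limma adjusted p of 0.971, 0.782 and 0.961. Cenpp, a centromere protein gene, fell by 1.24 ± 0.06 (adjusted p = 5.51e-08), and Iars, an isoleucyl-tRNA synthetase gene, fell by 1.73 ± 0.05 (adjusted p = 2.03e-09). In males Omd and Aspn differed by -0.23 ± 0.08 and 0.35 ± 0.12 between the ages, with no test. Group means were 8.25 to 9.89 for Omd and 5.37 to 5.68 for Ecm2, near or below the arrays' lower quartiles. A low level cannot be told from none there, so a small change in these genes could be missed.

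**Figure D4:**
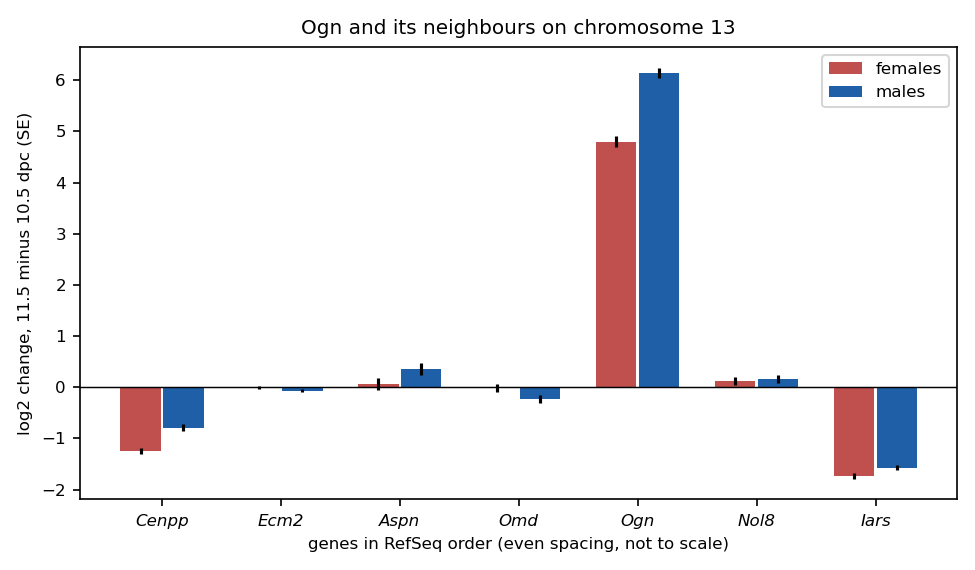
Change in log2(intensity + 1) from 10.5 to 11.5 dpc (bars, with SE) in females and males for Ogn and the genes beside it on chromosome 13, in RefSeq order with even spacing. Ogn alone was far above 0, at 4.80 and 6.15, while Aspn, Omd and Ecm2 stayed between -0.23 and 0.35 in both sexes. The male change of Ogn is the one that chose it. Omd and Ecm2 were dim, near or below the arrays' lower quartiles.

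On chromosome 10, Dcn, Lum, Kera and Epyc lie side by side. Dcn rose in females by 1.17, while the female changes of Lum, Kera and Epyc were -0.06, 0.00 and 0.29 and did not pass the test (limma adjusted p = 0.926, 0.992 and 0.459). Epyc, which encodes epiphycan, a cartilage proteoglycan of the same class as Ogn, read 62.9, 27.8 and 48.3 in males at 11.5 dpc and 11.7 to 20.8 on the other 9 arrays. It was higher in males than in females at 11.5 dpc by 1.20 ± 0.25 (adjusted p = 0.00344). On chromosome 1, Optc, Prelp, Fmod and Btg2 lie in that order. Optc and Prelp changed by 0.03 and -0.01 in females and did not pass the test (limma adjusted p = 0.581 and 0.926). Their group means of 5.26 to 5.52 and 4.87 to 5.01 were below the arrays' lower quartiles, where a low level cannot be told from none. Btg2, on the other side of Fmod, rose by 1.39 ± 0.05 in females (adjusted p = 4.61e-09), where Fmod rose by 1.42. In males Btg2 changed by 2.11 ± 0.05 and Fmod by 1.87, with no test.

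The genes whose pattern over the 12 arrays was most like that of Ogn, by Pearson r of log2(intensity + 1), were Actg2 (r = 0.9988), Pdgfrl (0.9982), Bgn (0.9981), Tmcc3 (0.9973) and Pdlim7 (0.9968). Actg2 encodes a smooth muscle actin and Pdlim7 an actin-associated adaptor. The 12 arrays form 4 groups and share one quantile normalization, so r is mainly a likeness of 4 group means. Actg2 read 490.4 to 529 in females and 484 to 531 in males at 10.5 dpc, 1621 to 1692 in females and 2363 to 2445 in males at 11.5 dpc. Of the other members, Dcn had r = 0.98 at rank 81 and Fmod r = 0.88 at rank 1095, and Omd and Prelp had r of -0.54 and -0.65. By Spearman rho, 0 of these 5 genes were among the top 5, and the order of Dcn (rho = 0.76, rank 1452) and Fmod (rho = 0.92, rank 79.5) was the other way round.

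The collagens that SLRPs bind rose beside them, between the same female groups whose neural marker sums differed. Of 17 genes for fibrillar collagens and collagens associated with them, 14 rose in females and 0 fell, with a median change of 1.41 against -0.01 over all genes, of which 22.3% rose and 27% fell. The largest were Col6a2 (3.55 ± 0.14, limma adjusted p = 1.2e-08), Col6a3 (2.80 ± 0.15, adjusted p = 7.9e-08), both chains of the beaded-filament collagen VI, and Col9a3 (2.60 ± 0.11, adjusted p = 2e-08). In males 11 of 17 were at least 2-fold higher at 11.5 dpc, led by Col9a3 at 6.28 ± 0.11. At 11.5 dpc 11 of 17 were higher in males than in females and 0 lower, against 19% higher and 20.9% lower over all genes. Col9a3, which is also in the list of Sertoli markers, had means of 539 and 8188, Col14a1, which binds to the surface of collagen fibrils, 57.2 and 201, and Col2a1 128 and 421.

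Enzymes that process collagens were mixed. In females 7 of 16 rose and 5 fell, against 22.3% and 27% of all genes. The risers included the crosslinking enzymes Loxl1 (2.07 ± 0.10, limma adjusted p = 3.3e-08) and Lox (1.03 ± 0.17, adjusted p = 0.00054) and Bmp1 (1.29 ± 0.04, adjusted p = 1.7e-09), the protease that trims procollagens and the propeptides of biglycan and osteoglycin. The fallers included Serpinh1, a collagen chaperone, by -0.76 ± 0.03, Pcolce2, an enhancer of procollagen cleavage, by -0.75 ± 0.07, and the prolyl hydroxylase P4ha1 by -0.54 ± 0.04, each past the threshold. At 11.5 dpc 9 of 16 were higher in males and 1 (Serpinh1) was lower, against 19% and 20.9% of all genes; the largest were Lox, with means of 89.2 in females and 248 in males, and the lysyl hydroxylases Plod2 (1189 and 3271) and Plod1 (310 and 802).

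Genes for the glycosaminoglycan chains moved in both directions. Of 21 genes of chondroitin and dermatan sulfate synthesis, 8 rose and 3 fell in females, against 22.3% and 27% of all genes, and at 11.5 dpc 3 were higher and 5 lower in males, against 19% and 20.9%. Csgalnact1, which starts chondroitin chains, rose by 2.00 ± 0.13 in females (limma adjusted p = 4.2e-07) and was lower in males than in females at 11.5 dpc, with means of 273 and 873 (-1.66 ± 0.13, adjusted p = 4.4e-06). Dse, the epimerase that turns chondroitin into dermatan sulfate, fell in females by 1.30 ± 0.14 (adjusted p = 1.9e-05). Of 10 keratan sulfate genes 2 rose and 1 fell in females, and at 11.5 dpc 3 were higher and 1 (Chst4) lower in males. The higher ones included the sulfotransferases Chst2 (means of 51.2 and 88.4) and Chst1 (261 and 416). Of 25 other proteoglycans and matricellular genes 10 rose and 4 fell in females, and at 11.5 dpc 11 were higher and 4 lower in males. The female rises were led by Cspg4 at 2.54 ± 0.14 and Smoc1 at 2.48 ± 0.07, and Smoc2 had the largest male excess at 11.5 dpc, with means of 292 in females and 1502 in males.

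Among 20 genes of TGF-beta and BMP ligands, receptors and targets, 13 rose and 3 fell in females, with a median of 0.69, against 22.3% and 27% of all genes and a median of -0.01. The largest were Inhba (2.56 ± 0.10, limma adjusted p = 9.1e-09), a subunit of activins, Ltbp3 (2.38 ± 0.18, adjusted p = 1.4e-06), which tethers latent TGF-beta to the matrix, and Bmp7 (2.04 ± 0.11, adjusted p = 6.7e-08). At 11.5 dpc 11 of 20 were higher in males and 3 were lower, against 19% and 20.9% of all genes; the TGF-beta-induced matrix gene Tgfbi had means of 755 in females and 2544 in males.

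**Figure D5:**
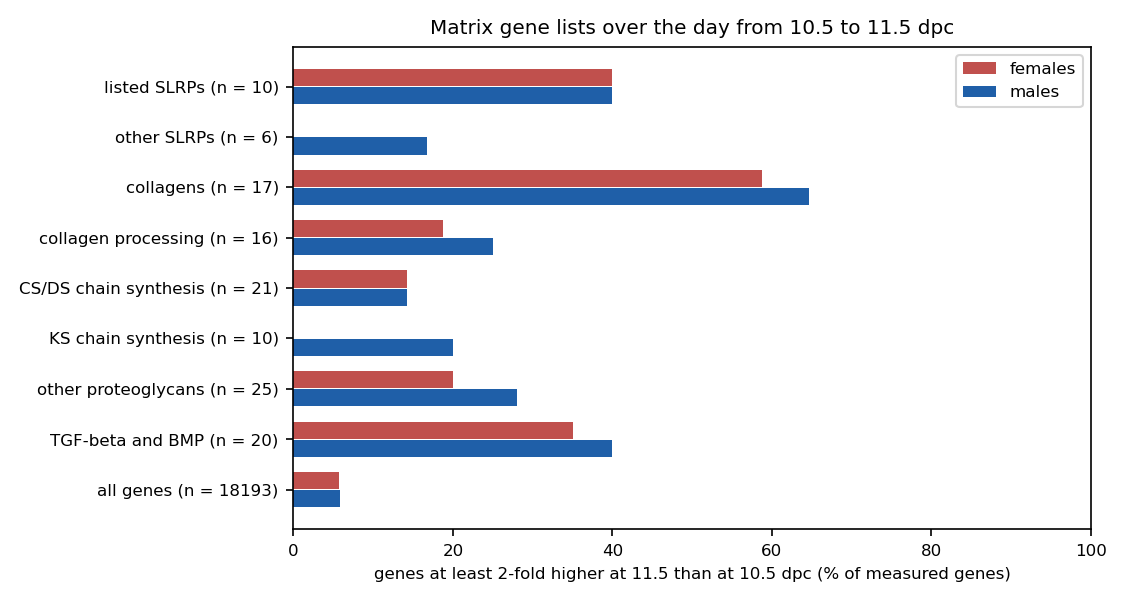
Share of the measured genes of each list (percent, horizontal axis from 0 to 100) that were at least 2-fold higher at 11.5 than at 10.5 dpc in females and males, with no test. The 10 SLRP genes stood at 40% in both sexes, or at 33.3% of 9 without Ogn, whose male change chose it. The 6 other SLRPs stood at 0% in females and 16.7% in males, collagens at 58.8% and 64.7%, and all 18193 genes at 5.75% and 5.79%.

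Markers of cells known to make SLRPs did not all move one way. The summed intensity of 18 mesenchyme and fibroblast markers was 27800 to 31000 in females and 26300 to 29900 in males at 10.5 dpc, and 16600 to 17600 and 20800 to 21700 at 11.5 dpc. Without Nr2f1, its brightest gene, the sum was 12500 to 12600 and 14000 to 14200 at 10.5 dpc, and 11600 to 11800 and 17100 to 17600 at 11.5 dpc, which was higher in males at 11.5 than at 10.5 dpc and slightly lower in females. In females 7 of the 18 rose and 6 fell, with a median of 0.02, against 22.3% and 27% of all genes and a median of -0.01. The largest changes were Fap (2.25 ± 0.10), Fbln2 (2.16 ± 0.09) and Nr2f1 (-1.66 ± 0.11). Fbln2 averaged 156 in 11.5 dpc females and 1542 in 11.5 dpc males. The dim members of that list, Thy1, Mfap5, Dpt and Pi16, had group means of 4.28 to 15.6. The sum over 8 pericyte and smooth muscle markers was 5200 to 5320, 5670 to 5920, 9950 to 10000 and 15100 to 15200 in females and males at 10.5 dpc and then at 11.5 dpc, and Cspg4, Pdgfrb and Myh11 were its largest female rises. Of 14 cartilage, bone, tendon and muscle markers 2 rose and 3 fell in females, against the same 22.3% and 27% of all genes. Tnmd, a tendon marker, had means of 18.5, 18.6, 36.6 and 106 in the same order, and the muscle gene Myod1 stayed at 4.01 to 4.07. The part of these cell types in the SLRP values was not tested.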

How the data were processed

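The 12 arrays carried 45101 probe sets each; 64 control probe sets were left out. The deposited table holds linear intensity values that the authors made with RMA (background correction, quantile normalization and probe summary), per the submitters' processing notes; its version, and how a linear scale was reached, are not given in the sources used. Quantile normalization hides a change shared by most transcripts, and RMA compresses dim probe sets.

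Intensities were turned into log2(value + 1). With all 12 arrays and 45037 probe sets, limma 3.58.1 in R 4.3.3 fitted a mean for each group, with one shared estimate of the spread, and was checked on simulated data; p-values were adjusted by Benjamini-Hochberg within each contrast, with a threshold of 0.05. The contrasts share arrays and, apart from the tested difference of age changes, were not set against each other. The number of arrays limits the precision. A gene was represented by its specific probe set with the highest mean, and only otherwise by an _s_at or _x_at one. All 21 member probe sets were named; in each other list up to 3 genes with the largest changes past the threshold (at least 2-fold in males) could be named, and the 5 genes most like Ogn. Optc, the neighbours of members, Kdm5d, Nr0b1, Wt1, Serpinh1, Pcolce2, P4ha1, Chst4, Myod1 and markers at low intensity were named after their values were seen. The members and lists were chosen with earlier results of these data known. Gene names came from the platform annotation. Alternatives were other pseudocounts, centring, a filter on dim probe sets, fewer groups in the fit, a replicate block, trended robust eBayes, averaged probe sets and leaving out each array. The ranks with a pseudocount of 16, the shares without Ogn and the marker sum without Nr2f1 were chosen after seeing the data.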

Additional observations from a re-analysis of the deposited data

Results flagged for a closer look

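The age change from 10.5 to 11.5 dpc differed between the sexes, by limma's test of the difference itself, for probe sets of Bgn and Fmod. For Bgn the male change was larger, by 0.673 at 1448323_a_at and 0.716 at 1416405_at on the log2 scale. For Fmod it was smaller, by -0.422 at 1437324_x_at, -0.59 at 1437685_x_at, -0.78 at 1437718_x_at, -0.486 at 1438966_x_at and -1.12 at 1456084_x_at, all probe sets that can match other transcripts; the specific Fmod probe set gave 0.45 with an adjusted p of 0.301. Groups of 3 arrays were not examined for single arrays that stand apart.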

How the results depend on the processing

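The number of members that rose in females stayed at 5 under the pseudocounts, trended eBayes, fitting only the groups compared and the replicate block, and was 4 to 5 with single arrays left out; with each array centred on its median 4 were higher, and Kera and Prelp lower. Single arrays left out gave 1 to 2 members for the sex difference at 10.5 dpc, 2 to 3 at 11.5 dpc, 1 to 2 for the difference of age changes, and 4 in every case at least 2-fold higher in males. The added calls at 10.5 dpc were Dcn (without female replicate 1) and Lum (without male replicate 2), at 11.5 dpc Aspn (without male replicate 1), and for the age changes Fmod (without female 10.5 dpc replicate 1) and Podn (without male 10.5 dpc replicate 1). With only the groups compared, 0 members differed between the sexes at 10.5 dpc, and with the mean of all probe sets of a gene 3 differed in their age change. Of the 5 genes most like Ogn, 0 stayed in the top 5 by Spearman rho and 3 with a pseudocount of 16.

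With each array centred on its median, the female age changes of Aspn and Kera became -0.001358 and -0.06976 (the latter at an adjusted p of 0.047), and the sex differences at 10.5 dpc of Prelp and Kera became -0.0198 and -0.004067. With the mean of all probe sets, the female change of Prelp became 0.01493, the sex differences at 10.5 dpc of Bgn and Aspn 0.06269 and 0.01434, and the differences of age changes of Dcn and Fmod -0.03764 and -0.4918. With single arrays left out, the female changes ranged from -0.2155 to 0.07077 for Lum, -0.03194 to 0.0179 for Omd, -0.01483 to 0.003873 for Prelp and -0.01539 to 0.01751 for Kera. The sex differences at 10.5 dpc ranged from -0.07963 to 0.02492 for Bgn, -0.003612 to 0.01303 for Prelp, -0.08291 to 0.06082 for Aspn and -0.0722 to 0.2194 for Podn, and the difference of age changes of Dcn from -0.03491 to 0.1388. The cause was not tested.

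Replicate numbers did not pair the arrays: 0 of 18 same-numbered pairs had a correlation of deviations above 0.1 (-0.141 to 0.0818), and 5 of 12 arrays correlated best with their own number. With the replicate block, 18568 probe sets were called in females against 18800 without it, the Ogn rise had an adjusted p of 2.61e-08, and no member gained or lost a call.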
